A study of Mus musculus with 4 samples.

Results

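The retinoid synthesis and binding genes make up a set of 9 genes grouped under the making, binding and clearing of retinoic acid: Rdh10, Dhrs3, Aldh1a1, Aldh1a2, Aldh1a3, Aldh1a7, Crabp1, Crabp2 and Cyp26b1. They were picked by gene symbol from the 54532 genes of the deposited count table, and each symbol matched 1 gene. The choice was made with their changes between these libraries already known, so the levels and changes below describe the genes and are not evidence that the set stands apart. Poly(A) RNA was sequenced in C3H10T1/2 cells, a line of mesenchymal stem cells from C3H mouse embryos. The control group had control siRNA for 48 h and no induction, and the siDNMT1 group had siRNA against DNMT1, the maintenance DNA methyltransferase, for 48 h and no induction. The OB group had control siRNA and then 3 days of osteoblast (OB) medium holding dexamethasone (0.001 µM), glycerophosphate (10 mM) and ascorbic acid (50 µM), and the siDNMT1_OB group had DNMT1 siRNA and then the same medium. Each of the 4 groups held 1 library of this 1 cell line, so no difference below has a replicate check and none carries a p-value. Intervals are 95% intervals of the read counts, exact except for those of differences between siDNMT1 effects, and they cover counting error only.

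Retinoic acid is made from retinol (vitamin A) in a pair of oxidation steps. RDH10 oxidises retinol to retinaldehyde and DHRS3 carries out the reverse reduction, while ALDH1A1, ALDH1A2 and ALDH1A3 oxidise retinaldehyde to retinoic acid. CRABP1 and CRABP2 bind retinoic acid in the cytosol, CYP26 enzymes hydroxylate it for clearance, and the RAR and RXR nuclear receptors carry its signal to target genes. Retinoids are known to act on the patterning of the skeleton and on the differentiation of cartilage and bone cells.

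The library totals ranged from 22296046 counts in OB to 27367792 in control. The library labelled siDNMT1_OB did not show lower Dnmt1 than OB: Dnmt1 had 265 and 132 CPM (read counts scaled to library size) in control and siDNMT1, but 85.4 and 93.1 CPM in OB and siDNMT1_OB. Each comparison that uses siDNMT1_OB therefore rests on its label and not on a measured knockdown. Of 11 mesenchymal markers, 0 were at or under 3 counts in any library and their summed level lay between 26643.3 and 33334.5 CPM, most of it from Col1a1, Col1a2 and Vim. Pdgfra was higher by 2.47 on the log2 scale in OB against control and by 1.56 in siDNMT1_OB against siDNMT1, Thy1 was higher by 1.22 in the latter, and Ly6a was at −1.03 in siDNMT1 against control, while the other members that passed the expression filter differed by less than 1 in all 4 comparisons. The part of these markers in the results was not tested. Of the markers of other cell types, 5 of 6 epithelial, 4 of 6 haematopoietic and 2 of 5 endothelial markers were at or under 3 counts in all 4 libraries. The 1 endothelial marker that passed the expression filter used below, Tek, was higher with DNMT1 siRNA, at 51 and 152 counts in control and siDNMT1 and 63 and 203 in OB and siDNMT1_OB, log2 fold changes of 1.62 and 1.42, and the summed level of the 5 endothelial markers was 2.29 and 3.18 CPM with control siRNA and 6.21 and 7.85 CPM with DNMT1 siRNA. The defining endothelial markers Pecam1 and Cdh5 had at most 8 and 3 counts in any library, and the part of this list in the differences with DNMT1 siRNA was not tested. Of 8 osteoblast markers, Alpl and Bglap were at or under 3 counts in all 4 libraries, also after induction, and Sp7 and Ibsp did not pass that filter. The other 4 did. In OB against control Phex was higher (256 and 687 counts in control and OB), and Spp1 (14862 and 4226) and Dmp1 (80 and 8) were lower. Each differed by more than 1 on the log2 scale (10.6% of all tested genes were so much higher and 7.1% lower), and Runx2 (2049 and 1644) differed by less. In siDNMT1 against control Spp1 (−1.41) and Phex (−1.05) were lower by more than 1, beside 1.37% of all tested genes. In siDNMT1_OB against OB Phex was lower (−2.26), beside 1.37%, and Dmp1 higher (1.76), beside 2.36%. In siDNMT1_OB against siDNMT1 0 of the 4 differed by more than 1. The part of this list in the results was not tested. The summed level of 6 adipocyte markers was 41.2 and 45.1 CPM in control and siDNMT1 and 101 and 92.9 CPM in OB and siDNMT1_OB, with Fabp4 at 111, 72, 963 and 1305 counts over these libraries. Of the 4 that passed the filter, 3 were higher by more than 1 in OB against control, beside 10.6% of all tested genes. They were Fabp4 (3.35), Lpl (2.27) and Cebpa (1.87), with Pparg at 0.43. In siDNMT1_OB against siDNMT1 Fabp4 alone was so much higher, at 4.08, beside 6.83%. Cebpa (78 and 189 counts) and Lpl (10 and 25) were higher in siDNMT1 against control. Their log2 fold changes were 1.34 and 1.24, beside 1.97% of all tested genes higher by more than 1. Fabp4 was at −0.53 there and Pparg at 0.00. In siDNMT1_OB against OB 0 of the 4 differed by more than 1. The defining members of this list, Adipoq and Plin1, were at or under 2 counts in every library. The part of this list in the changes under OB medium and with DNMT1 siRNA was not tested. As these are bulk samples, fewer cells expressing a gene and less RNA per cell cannot be told apart.

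Aldh1a1 and Aldh1a7 are shown first by sequence, since they had the largest changes of the set and are close paralogs whose reads can be confused. Aldh1a1 encodes a cytosolic retinaldehyde dehydrogenase, and Aldh1a7 is a rodent paralog of it. In the table Aldh1a1 (ENSMUSG00000053279) lies on the plus strand at chr19:20492715-20643462 and Aldh1a7 (ENSMUSG00000024747) on the minus strand at chr19:20692953-20727562 (GRCm38), so the genes are neighbours in tail-to-tail orientation. Their coding sequences in GENCODE M21 are both 1506 bases long and differ at 126 bases, an identity of 91.6%. The identities of Aldh1a1 to Aldh1a2 and Aldh1a3 were 70.1% and 68.6%. The longest stretch that a read cannot assign to one of the paralogs is 100 bases long and spans the junction of exons 8 and 9 (coding bases 757 to 856; chr19:20629063-20630671 for Aldh1a1, plus strand, and chr19:20708329-20709491 for Aldh1a7, minus strand, introns included):

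Aldh1a1 and Aldh1a7: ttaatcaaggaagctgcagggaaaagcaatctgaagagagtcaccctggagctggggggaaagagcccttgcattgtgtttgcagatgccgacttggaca

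The 60 coding bases in which they differ most lie in exon 4 of both genes (chr19:20619973-20620032, plus strand, and chr19:20719252-20719311, minus strand) and hold 16 differences, printed in capitals:

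Aldh1a1: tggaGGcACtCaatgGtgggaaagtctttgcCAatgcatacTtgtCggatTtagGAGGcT

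Aldh1a7: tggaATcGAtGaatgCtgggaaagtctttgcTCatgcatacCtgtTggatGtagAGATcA

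Of the 2017 stretches of 50 bases in the Aldh1a7 transcript, 151 (7.49%) also occur in an Aldh1a1 transcript, and in no other gene. The transcripts of Rdh10, Dhrs3, Aldh1a2, Crabp1, Crabp2 and Cyp26b1 share no stretch of 50 bases with another gene. One Aldh1a3 transcript shares 53 of its 1447 such stretches (3.66%) with other genes. No exon of any of the 9 genes overlaps an exon of another gene in the table, on either strand. The RNA read length and the treatment of multi-mapping reads are not given in the sources used here, so the split of reads between Aldh1a1 and Aldh1a7 is uncertain, but most of each transcript can be told apart.

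**Figure D1:**
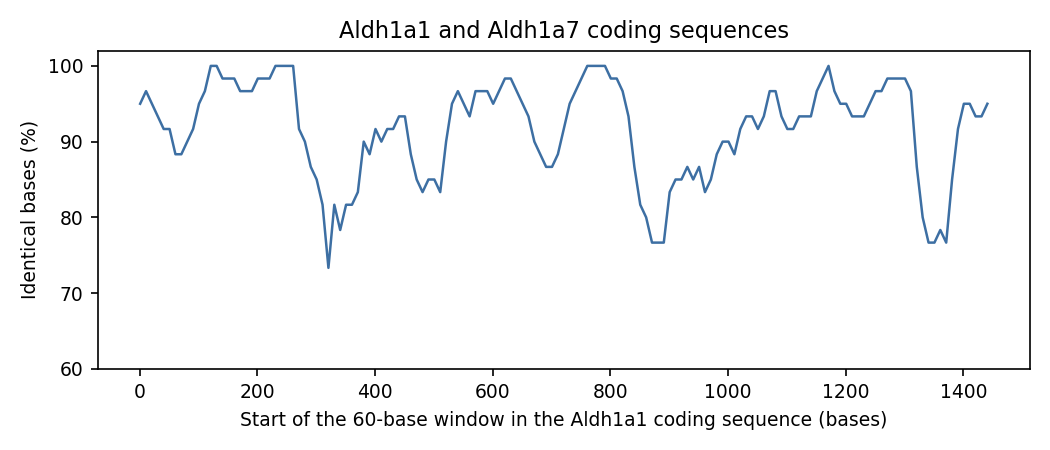
Identity of the Aldh1a1 and Aldh1a7 coding sequences in windows of 60 bases. The x axis gives the start of the window in the Aldh1a1 coding sequence and the y axis the percentage of identical bases. Identity reaches 100% in a few stretches, the longest of 100 bases, and is lowest, at 73.3%, in exon 4.

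The starts of these paralogs are alike as well. RefSeq (GRCm38.p6) windows of 300 bases, from 250 bases before to 50 bases after an annotated start, were at hand for 6 of the 9 genes (Dhrs3, Cyp26b1, Crabp1, Aldh1a2, Aldh1a1 and Aldh1a7). The window of the downstream Aldh1a1 start (chr19:20601718-20602017, plus strand) and that of Aldh1a7 (chr19:20727507-20727806, minus strand) were identical at 221 of 285 aligned bases (77.5%). The windows are printed because these genes were both near silent without and abundant with OB medium, and capitals mark their longest identical stretch, 65 bases that end 30 bases before each start:

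Aldh1a1: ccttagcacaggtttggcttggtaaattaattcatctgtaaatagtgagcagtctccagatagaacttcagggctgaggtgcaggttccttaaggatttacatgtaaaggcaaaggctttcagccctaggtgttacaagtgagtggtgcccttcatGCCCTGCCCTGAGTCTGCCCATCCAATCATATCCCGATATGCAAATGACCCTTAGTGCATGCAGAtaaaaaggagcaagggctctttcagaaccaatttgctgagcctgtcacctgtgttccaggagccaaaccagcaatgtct

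Aldh1a7: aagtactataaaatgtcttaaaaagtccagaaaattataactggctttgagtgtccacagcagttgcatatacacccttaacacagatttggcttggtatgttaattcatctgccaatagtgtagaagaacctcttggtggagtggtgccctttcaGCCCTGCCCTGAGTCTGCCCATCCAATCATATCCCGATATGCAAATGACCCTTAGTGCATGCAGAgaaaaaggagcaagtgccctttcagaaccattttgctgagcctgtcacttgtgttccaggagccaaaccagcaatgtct

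Both windows are poor in CpG, the dinucleotide that DNMT1 keeps methylated. Each holds 1 CpG, at percentile 5.43 of all 32851 windows, whose median is 7. The window of the upstream Aldh1a1 start holds 3. The window of the most upstream Dhrs3 start (chr4:144892577-144892876, plus strand) holds 21 CpGs, printed here in capitals, while those of the other 2 Dhrs3 starts hold 10 and 9, near the median:

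Dhrs3: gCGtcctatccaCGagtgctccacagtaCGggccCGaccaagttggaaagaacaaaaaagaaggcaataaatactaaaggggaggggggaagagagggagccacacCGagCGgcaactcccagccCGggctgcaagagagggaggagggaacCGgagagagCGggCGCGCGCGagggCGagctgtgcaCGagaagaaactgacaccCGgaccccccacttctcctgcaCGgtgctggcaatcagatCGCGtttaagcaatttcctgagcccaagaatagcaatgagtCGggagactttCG

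The other windows hold 50 CpGs for Aldh1a2, 17 for Crabp1 and 9 for Cyp26b1. Methylation itself was not analysed here. The shared stretch of Aldh1a1 and Aldh1a7 holds a CCAAT box (CCAAT), found on either strand in 37.4% of all windows, and an octamer (ATGCAAAT), found in 1.74%, both picked after the stretch was seen. They are not particular to this pair, since the window of Aldh1a2, with at most 1 count in any library, holds both as well, and 2 of the 3 Dhrs3 windows hold a CCAAT box. On either strand, the core of the glucocorticoid response element (GNACA and TGTNC, 3 bases apart) matched in 0.475% of all windows, and the retinoic acid receptor motif GNTCA, repeated after 6 or 3 bases, matched in 0.861% and 1.12%. None of the windows of the 6 genes held one of these 3 motifs, which says only that those letters are not in these windows.

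The 9 genes ranged from at most 3 counts in every library to 8536 counts of Aldh1a7 in OB. Of them 6 passed the expression filter, a mean of at least 1 CPM over the 4 libraries, which 13233 genes passed. Dhrs3, Aldh1a1 and Aldh1a7 passed only through the libraries in which they were high. Aldh1a2 had 1 count, in siDNMT1, and 0 in the other libraries. Aldh1a2 encodes the main retinaldehyde dehydrogenase of early embryos, and it was at or under the floor of 3 counts in every library, which equals 0.111 CPM in control and 0.133 CPM in OB. Crabp1 had 0, 1, 1 and 2 counts over control, siDNMT1, OB and siDNMT1_OB, also under the floor. Aldh1a3, the remaining retinaldehyde dehydrogenase, had 23 and 14 counts untreated (control, siDNMT1) and 18 and 17 induced (OB, siDNMT1_OB), or 0.848, 0.546, 0.796 and 0.635 CPM. The intervals of all 4 Aldh1a3 comparisons included 0, so no difference was detectable at this depth.

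**Figure D2:**
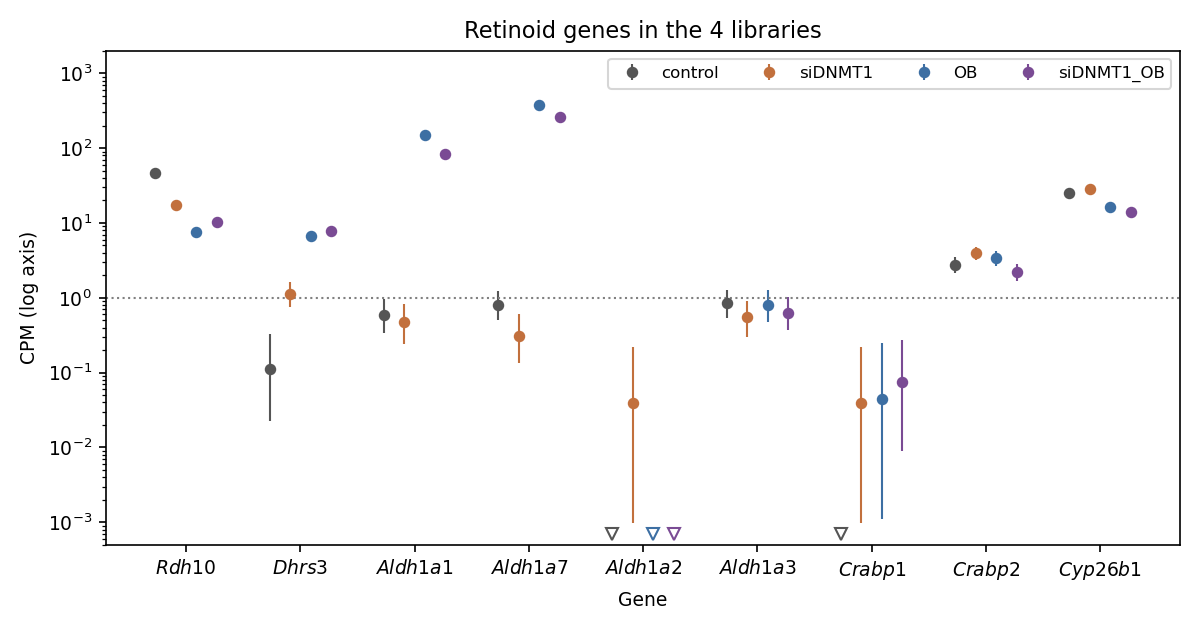
Level of each gene in the 4 libraries, in CPM on a log axis, with 1 point per library and exact 95% counting intervals. Open triangles at the bottom stand for 0 counts and the dotted line for 1 CPM. Aldh1a1 and Aldh1a7 lie under 1 CPM without and above 80 CPM with OB medium, and Rdh10 is highest in control.

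To see how OB induction altered the set, OB was compared with control. A gene was counted as past the fold when its log2 fold change, computed with a prior count of 2, was at least 1 in size. By this rule Dhrs3, Aldh1a1 and Aldh1a7 were higher, against 10.6% of all tested genes, and Rdh10 was lower, against 7.1%. The rule of choice used these values, so nothing is read from the counts.

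Aldh1a7 had 22 and 8 counts in the untreated libraries (control, siDNMT1) and 8536 and 7000 in the induced ones (OB, siDNMT1_OB). This corresponded to 0.811 CPM (0.508 to 1.23), 0.312 CPM (0.135 to 0.615), 377 CPM (369 to 386) and 262 CPM (255 to 268). It was thus near silent in both untreated libraries and abundant in both induced ones, with no overlap of the intervals between untreated and induced libraries. The log2 fold change of OB against control was 8.73 (interval 8.26 to 9.54), the 3rd highest of the 13233 tested genes. By TPM, a level per exon length, Aldh1a7 ranked 12446th of the tested genes in control and 234th in OB.

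Aldh1a1 had 16 and 12 counts in the untreated libraries (control, siDNMT1) and 3392 and 2263 in the induced ones (OB, siDNMT1_OB), or 0.590, 0.468, 150 and 84.6 CPM. Its pattern was that of Aldh1a7, low in the untreated and high in the induced libraries. The log2 fold change of OB against control was 7.81 (7.29 to 8.80), the 6th highest. If the reads of both paralogs are summed, the counts are 38, 20, 11928 and 9263, and the log2 fold change is 8.48 (8.10 to 9.06). Aldh1a7 holds most of these reads in OB, so the sum does not show how much of the Aldh1a1 value could come from reads of Aldh1a7, which was not tested.

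The split itself can be read within a library, where scaling plays no part. Aldh1a7 took 71.6% (70.7 to 72.4) of the reads of both paralogs in OB and 75.6% (74.7 to 76.4) in siDNMT1_OB. In control it took 57.9% (40.8 to 73.7) of only 38 reads and in siDNMT1 40.0% (19.1 to 63.9) of only 20 reads. Per merged exon length of the table, Aldh1a7 was 6.01 times (5.77 to 6.26) the level of Aldh1a1 in OB. Per length of 1 coding transcript each, the ratio was 2.50 in OB, 3.07 in siDNMT1_OB, 1.37 in control and 0.662 in siDNMT1. The ratios are smaller on this scale because the Aldh1a1 model of 4934 bases merges distant upstream exons with those of the 2053-base coding transcript. Summed per length, the ALDH1A isozymes (Aldh1a1, Aldh1a2, Aldh1a3 and Aldh1a7) came to 2.00 and 1.15 TPM in the untreated libraries and 659 and 442 TPM in the induced ones. Aldh1a7 made up 85.7% of this sum in OB and 88.0% in siDNMT1_OB, and activity on retinaldehyde was not measured. Aldh1a3 made up 26.4% of this sum in control and 0.0808% in OB, although its own level differed by less than counting error.

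Dhrs3, the retinaldehyde reductase, had 3 and 29 counts in the untreated libraries and 151 and 212 in the induced ones, each pair with control siRNA first, or 0.111, 1.13, 6.68 and 7.92 CPM. Control was lowest, siDNMT1 lay between, and the intervals of both induced libraries overlapped. OB held 60.4 times (20.3 to 296) the level of control, a wide interval because control held only 3 reads. The log2 fold change of 5.16 was the 37th highest of the tested genes.

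Rdh10, the retinol dehydrogenase of the opposite reaction, lay on the plus strand at chr1:16105774-16133734 and had 1265 and 450 counts untreated and 170 and 276 counts induced. The levels of 46.6, 17.6, 7.52 and 10.3 CPM fell into the order control, siDNMT1, siDNMT1_OB and OB, with no overlap of intervals between any of the 4 libraries. The log2 fold change of OB against control was −2.62 (−2.87 to −2.40), the 54th lowest of the tested genes.

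Because RDH10 and DHRS3 run the same step in opposite directions, the ratio of their reads per exon length was followed within each library. Rdh10 exceeded Dhrs3 by 297 times (101 to 1441) in control and by 10.9 times (7.50 to 16.5) in siDNMT1. In OB the ratio was 0.792 (0.632 to 0.993) and in siDNMT1_OB 0.916 (0.763 to 1.10), so that both genes had similar levels in the induced libraries. This describes mRNA and not enzyme activity.

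**Figure D3:**
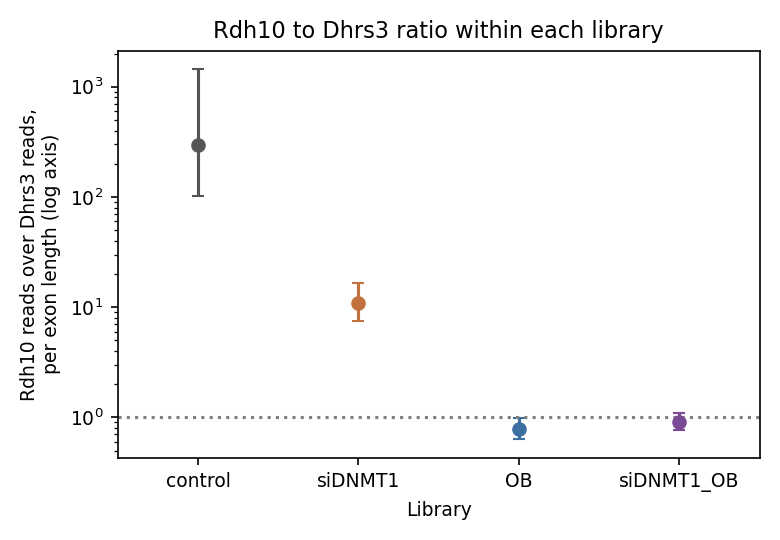
Ratio of Rdh10 to Dhrs3 reads per exon length in each library, on a log axis, with exact 95% counting intervals. The dotted line marks equal levels. The ratio is 297 and 10.9 in the untreated libraries (control, siDNMT1) and 0.792 and 0.916 in the induced ones.

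The binding and clearance genes differed less. Cyp26b1, which encodes a retinoic acid hydroxylase (minus strand, chr6:84571414-84593908), had 691 and 736 counts untreated and 364 and 375 counts induced, or 25.5, 28.7, 16.1 and 14.0 CPM. Both untreated libraries lay above both induced ones. The log2 fold change of OB against control was −0.66 (−0.85 to −0.48), short of the fold. Crabp2, the carrier that passes retinoic acid to its nuclear receptor (plus strand, chr3:87948666-87953376), had 75, 101, 77 and 59 counts, or 2.77, 3.94, 3.40 and 2.20 CPM. Its OB value of 0.29 (−0.18 to 0.78) was within counting error.

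The same induction was then compared with DNMT1 siRNA, as siDNMT1_OB against siDNMT1. Here Dhrs3, Aldh1a1 and Aldh1a7 were again higher, against 6.83% of all tested genes, and Cyp26b1 was lower, against 2.71%. Aldh1a7 had a log2 fold change of 9.39 (8.73 to 10.9) and Aldh1a1 one of 7.27 (6.69 to 8.45). With the reads of both paralogs summed, the value was 8.65 (8.16 to 9.50). Dhrs3 had 2.72 (2.24 to 3.42), and its ratio of 7.0 times compares with the 60.4 times of control siRNA, with siDNMT1 already above control. Rdh10 had −0.76 (−0.99 to −0.55), short of the fold. Cyp26b1 had −1.03 (−1.22 to −0.85) and Crabp2 −0.82 (−1.33 to −0.36). The siDNMT1 library is the base of this comparison and the control library that of the one before, so they share no library.

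**Figure D4:**
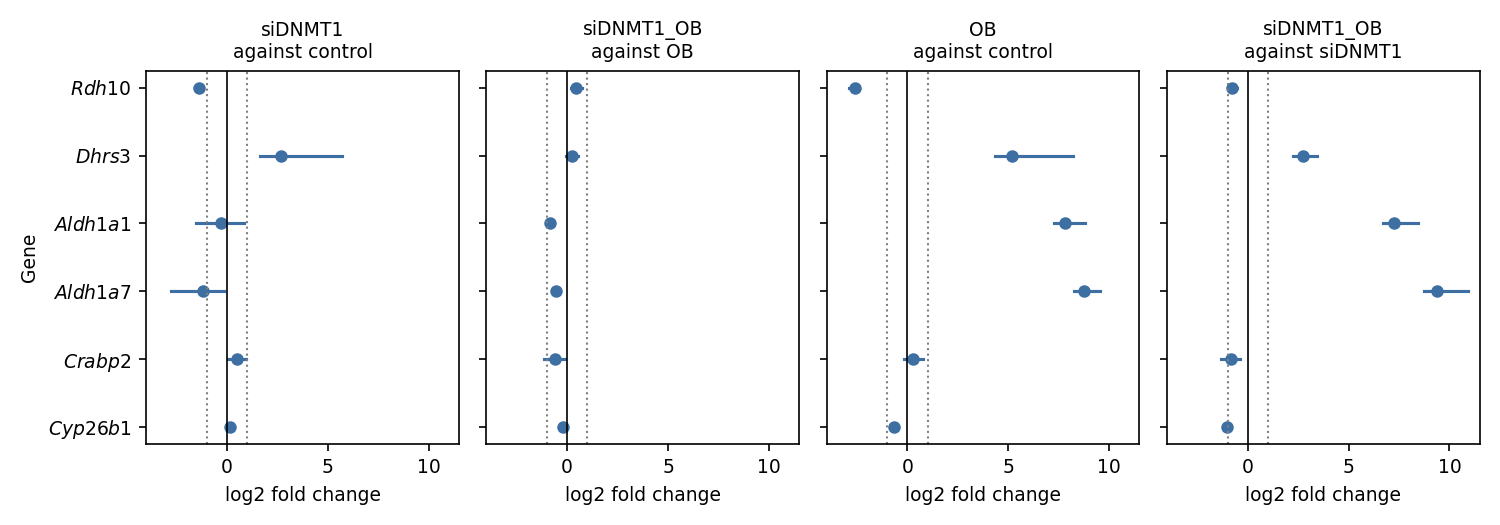
Log2 fold changes (x axis) of the 6 genes that passed the expression filter in the 4 comparisons, with exact 95% counting intervals as lines. The dotted lines mark a log2 fold change of 1 in each direction. Aldh1a1 and Aldh1a7 lie above 7 in both OB comparisons, and Rdh10 lies below −1 in siDNMT1 against control and in OB against control.

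To ask what DNMT1 depletion did to the set in untreated cells, siDNMT1 was compared with control. Dhrs3 was past the fold on the higher side, against 1.97% of tested genes, and Rdh10 and Aldh1a7 on the lower side, against 1.37%. With a filter at a mean of 5 CPM, Dhrs3 did not pass and 0 genes of the set were higher. Dhrs3 went from 3 to 29 counts, 10.2 times (3.17 to 52.5) without a prior count. Its log2 fold change, with the prior count, was 2.68, the 9th highest. Rdh10 went from 1265 to 450 counts, a log2 fold change of −1.40 (−1.57 to −1.25), the 56th lowest. Both steps of the retinol and retinaldehyde pair thus differed in the direction also seen with OB medium, but both comparisons share the control library, so this is no separate evidence. Aldh1a7 went from 22 to 8 counts, a log2 fold change of −1.19 (−2.75 to −0.16). It is short of the fold at −0.99 with a prior count of 5 and at −0.78 with the paralogs summed. Aldh1a1, with 16 and 12 counts, had −0.29 (−1.54 to 0.84), within counting error. Crabp2 had 0.50 (0.07 to 0.96) and Cyp26b1 0.17 (0.02 to 0.33).

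After induction, siDNMT1_OB was compared with OB. None of the 6 genes was past the fold on either side, where 2.36% of tested genes were higher and 1.37% lower. Both induced paralogs were lower in the library labelled siDNMT1_OB. Aldh1a1 had −0.83 (−0.90 to −0.75) and Aldh1a7 −0.53 (−0.57 to −0.48), and these intervals did not overlap. With the reads of both summed, the value was −0.61 (−0.65 to −0.57). Rdh10 had 0.45 (0.18 to 0.74) and Crabp2 −0.61 (−1.14 to −0.12). Dhrs3 at 0.24 (−0.06 to 0.56) and Cyp26b1 at −0.20 (−0.41 to 0.01) were within counting error. Dnmt1 itself had 0.13 (0.04 to 0.21) in this comparison, so the labelled knockdown is not seen in these 2 libraries.

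The siDNMT1 effect in OB cells was set against that in untreated cells. The difference (OB cells minus untreated cells) was 1.86 for Rdh10 (1.54 to 2.17, counting error only), whose values had opposite signs. It was −2.44 (−4.18 to −0.69) for Dhrs3 and −1.11 (−1.76 to −0.46) for Crabp2. For Cyp26b1 it was −0.37 (−0.63 to −0.12). With prior counts of 0.5 and 5 the difference for Dhrs3 was −2.90 and −1.88. The intervals for Aldh1a1 (−0.54, −1.62 to 0.55) and Aldh1a7 (0.66, −0.51 to 1.83) included 0, since both had few reads in untreated cells. With 1 library per group none of these differences could be tested.

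Other genes of the pathway were read from lists. These lists and those below were taken from general knowledge with earlier results of these data known, so their shares and medians are descriptions only. Of 31 further genes for retinoid transport, storage, interconversion and clearance, 13 passed the filter and 11 were at or under 3 counts in every library. Among the latter were Lrat, the enzyme that stores retinol as esters, and Rbp4, the retinol carrier of blood, and Stra6, its receptor, had 1, 2, 5 and 3 counts. In OB against control 2 of the 13 were past the fold on the higher side and 0 on the lower, beside 10.6% and 7.1% of all tested genes, with a median of 0.12 beside 0.01 for all tested genes. These were Adh1, an alcohol dehydrogenase that can oxidise retinol, with 5 and 21 counts untreated and 92 and 31 induced, and Dhrs9, a short-chain dehydrogenase, with 193, 165, 531 and 394 counts. Adh1 had a log2 fold change of 3.98 (3.19 to 6.12) and Dhrs9 of 1.71 (1.48 to 1.97). In siDNMT1_OB against siDNMT1 Dhrs9 alone of the 13 was past the fold, at 1.18 (0.93 to 1.46), where 6.83% of all tested genes were higher and 2.71% lower. Adh1 was past the fold in both siDNMT1 comparisons as well, at 1.77 (0.71 to 3.92) untreated and −1.75 (−2.45 to −1.21) in OB cells, and no other gene of the 13 was past it in those, where 1.97% and 2.36% of all tested genes were higher and 1.37% lower in each.

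Of the 6 nuclear receptors, Rara, Rarg, Rxra and Rxrb passed the filter and 0 of the 4 were past the fold in any of the 4 comparisons, in which between 1.37% and 10.6% of all tested genes were past it in a given direction. Rarg was at 254 and 202 CPM untreated and 223 and 197 CPM induced. Rarb, which is itself a classic target of retinoic acid, had 3, 3, 3 and 4 counts, and Rxrg had no count.

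Of 19 genes known to respond to retinoic acid, a list that leaves out all members of the set, 9 passed the filter. Their median log2 fold change was −0.04 in OB against control and −0.26 in siDNMT1_OB against siDNMT1. In OB against control, where 10.6% of all tested genes were higher and 7.1% lower, 2 were higher, Rarres1 at 1.24 (0.70 to 1.88) and Tgm2, a transglutaminase, at 1.13 (0.91 to 1.37), and 1 was lower, the nuclear receptor gene Nr2f2 at −1.11 (−1.21 to −1.01). In siDNMT1_OB against siDNMT1 Tgm2 alone was past the fold, at 1.99 (1.79 to 2.22), beside 6.83% of all tested genes higher and 2.71% lower. In siDNMT1 against control 0 of the 9 were past the fold, beside 1.97% of all tested genes higher and 1.37% lower. In siDNMT1_OB against OB Btg2 alone was, at 1.01 (0.84 to 1.18), beside 2.36% higher and 1.37% lower. Cyp26a1, which retinoic acid is known to induce, had 2, 6, 2 and 1 counts, near or under the floor in every library.

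Of 16 other aldehyde dehydrogenases 12 passed the filter. In OB against control 3 were higher and 1 lower, beside 10.6% and 7.1% of all tested genes, with a median of −0.03. In siDNMT1_OB against siDNMT1 2 were higher and 0 lower, beside 6.83% and 2.71%, with a median of 0.21. The highest of these, Aldh6a1 (mitochondrial) at 2.03 (1.89 to 2.18) and Aldh3b1 at 1.99 (1.72 to 2.31) in OB against control, lay well under the values of Aldh1a1 and Aldh1a7. Aldh3a1, an isozyme of detoxification, was lower in OB than in control at −2.28 (−2.61 to −2.01), and it was the 1 gene of the 12 past the fold in each siDNMT1 comparison, at −3.60 (−4.10 to −3.23) untreated and −1.05 (−1.54 to −0.61) in OB cells. In these comparisons 1.37% of all tested genes were lower in each, and 1.97% and 2.36% higher.

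The OB medium holds the glucocorticoid dexamethasone, and most of the listed genes that respond to glucocorticoids were higher in the libraries in which Aldh1a1 and Aldh1a7 were. Of 12 such genes, 10 were past the fold on the higher side in OB against control, with a median of 2.21, beside 10.6% of all tested genes and a median of 0.01. In siDNMT1_OB against siDNMT1 11 were, with a median of 2.37, beside 6.83% and a median of 0.00, and 0 were lower in either. Sgk1 at 0.49 (0.43 to 0.55) and Dusp1 at 0.55 (0.38 to 0.72) were short of the fold in OB against control, and Dusp1, at 0.99, in siDNMT1_OB against siDNMT1. Tsc22d3 had 4.0 (3.90 to 4.12) and Fkbp5 3.03 (2.94 to 3.12) in OB against control, and Zbtb16 went from 0 counts in both untreated libraries to 1780 in OB and 1688 in siDNMT1_OB. The medians are unchanged where Zbtb16 is placed at its bound against 3 counts, since it stays above them. In siDNMT1 against control 0 of the 12 were past the fold, beside 1.97% of all tested genes higher and 1.37% lower, with a median of −0.27. In siDNMT1_OB against OB 1 was lower, Glul (275 and 113 CPM in OB and siDNMT1_OB), and 0 were higher, beside 1.37% and 2.36%. The median there was −0.22, with 9 of the 12 below 0. The part of dexamethasone in the changes of the retinoid genes was not tested, and the agents of the medium and the 3 days of culture cannot be told apart.

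**Figure D5:**
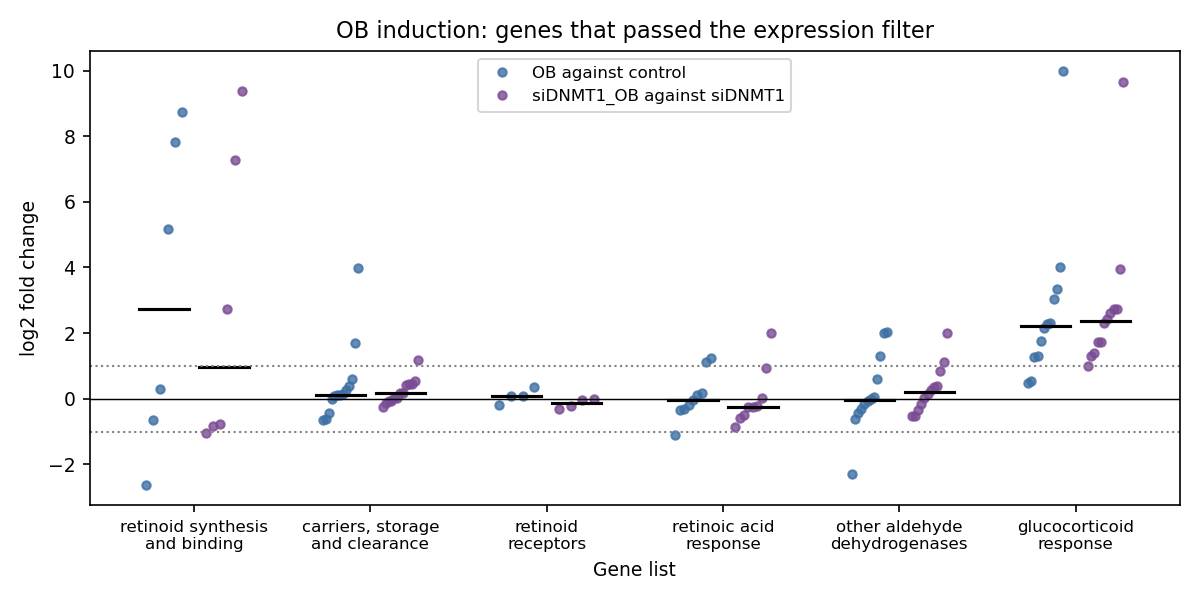
Log2 fold changes of OB against control and of siDNMT1_OB against siDNMT1 (y axis) for genes that passed the expression filter, by list (x axis), with 1 point per gene and a black line at the median. The dotted lines mark a log2 fold change of 1 in each direction. The medians of the lists of receptors and of retinoic acid response lie near 0, with Rarres1, Tgm2 and Nr2f2 past a dotted line in OB against control. The glucocorticoid list lies above 0. The top point of that list is Zbtb16, which had 0 counts before induction.

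The genes with the most similar pattern were found by the distance between log2 CPM values over the 4 libraries, each gene centred on its own mean. For Aldh1a7 they were Zbtb16 (distance 1.14), Fam107a (1.44; 6, 10, 4720 and 2628 counts) and Aldh1a1 (1.66). For Aldh1a1 they were Hif3a (0.77; 0, 0, 240 and 199 counts), Sult1a1 (0.83; 5, 6, 957 and 644 counts) and Hp (0.92; 15, 11, 2388 and 971 counts). For Dhrs3 they were Nkain3 (0.73; 2, 16, 153 and 114 counts), Oas2 (0.73; 1, 20, 123 and 256 counts) and Oasl2 (0.90; 18, 122, 288 and 547 counts), the latter 2 of which belong to the interferon-induced OAS family. For Rdh10 they were Hmga1 (0.24; 6190, 2768, 891 and 1430 counts), its near-identical copy Hmga1b (0.26), whose reads cannot be kept apart from it with certainty, and the noncoding Gm29630 (0.27; 131, 38, 18 and 26 counts). Crabp2 and Cyp26b1 varied by less than 2 on the log2 scale and were not matched. With 4 libraries such likeness is a description only.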

How the data were processed

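RNA from 4 groups of C3H10T1/2 cells, with 1 library each, was analysed. The deposited table holds raw counts per gene, which the authors made by trimming paired-end TruSeq reads with Trimmomatic, aligning them with HISAT2 and counting with featureCounts. The submitters' processing notes name the mm10 build. Tool versions, read length, strand setting and the treatment of multi-mapping reads are not given in the sources used here. The table's exon length column, also deposited by the authors, was used for TPM and per-length ratios.

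Scaling used the TMM factors (0.991 to 1.01) of edgeR 4.0.16 (R 4.3.3), estimated from the counts of genes with a mean of at least 1 CPM. Log2 fold changes used a prior count of 2, while ratios in times and all exact intervals used the counts without it. The fold of 1 on the log2 scale is the size threshold of the study. CPM intervals are exact Poisson and ratio intervals exact Clopper-Pearson. Those of differences between siDNMT1 effects are normal approximations from the 4 counts, centred on the values with the prior count. They are rough for Dhrs3, with 3 reads in control. No label says that samples are replicates, so no test was run. The calculation was run on simulated Poisson counts, the model that its intervals assume, which says nothing about variation between cultures. Per-length levels, coding sequences (GENCODE M21, GRCm38) and promoter windows (RefSeq) were handled in Python 3.11.15 with biopython 1.88. The members, lists and motifs were chosen with earlier results of these data known. Named genes are the 9 members, Dnmt1, the 3 nearest patterns of each member varying by at least 2 on the log2 scale, and up to 4 list genes past the fold. Genes at or near 0 counts, the cell type markers, Rarg, Sgk1, Dusp1 and Glul were named after their values were seen. The alternatives were other scalings, prior counts and filters, and summed paralogs. Alternatives with TMM over all genes, TMM without the library labelled siDNMT1_OB and coding transcript lengths were added after seeing the data.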

Additional observations from a re-analysis of the deposited data

Results flagged for a closer look

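Rdh10 had siDNMT1 effects of opposite sign, −1.40 in untreated and 0.45 in OB cells, a difference of 1.86 on the log2 scale, and neither counting interval included 0. Crabp2 also had opposite signs, 0.50 and −0.61, a difference of −1.11, and its OB effects had opposite signs too, 0.29 (an interval that includes 0) with control siRNA and −0.82 with DNMT1 siRNA. Cyp26b1 had 0.17 and −0.20, a difference of −0.37, where the interval of the second value includes 0. Dnmt1 had −1.01 and 0.13, a difference of 1.13, which goes against the label of the siDNMT1_OB library. None of these differences was tested, because each group holds 1 library.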

How the results depend on the processing

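No paired analysis was possible because each group holds 1 library, and for the same reason no library could be left out of a group. Over 156 log2 fold changes of the 6 genes under other scalings, prior counts and TMM sets, 0 reversed and 0 left their counting interval, and scaling moved none by more than 0.05. The prior count moved values by up to 0.67, most for Dhrs3, whose value with prior counts of 0.5 and 5 was 5.68 and 4.49 in OB against control and 3.14 and 2.12 in siDNMT1 against control. A prior count of 5 put Aldh1a7 in siDNMT1 against control at −0.99, which left 1 gene of the set on the lower side there, and summing the paralogs put it at −0.78. Summing moved 4 of 8 values of Aldh1a1 and Aldh1a7 out of their counting intervals, all in comparisons that use the library labelled siDNMT1_OB, with 0 reversed. Dnmt1 in siDNMT1 against control was short of the fold under total count scaling (−0.996) and upper quartile scaling (−0.98). With a mean CPM of at least 5, Dhrs3 no longer passed, which left 0 genes of the set higher in siDNMT1 against control and 2 in place of 3 in each of OB against control and siDNMT1_OB against siDNMT1. That filter left 110 higher and 91 lower genes in siDNMT1 against control, 185 and 72 in siDNMT1_OB against OB, 825 higher in OB against control, and 509 and 229 in siDNMT1_OB against siDNMT1. Without a filter the counts were 1379 and 1219, 1381 and 1892, 4080 and 2062, and 2550 and 1316 in the same order. These compare with 261 and 181, 312 and 181, 1404 and 940, and 904 and 358 in the report's setting, and fewer or more genes tested is by construction part of the cause. Depth limits the untreated values of Dhrs3, Aldh1a1 and Aldh1a7, which rest on 3 to 29 reads.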
